A study of Mus musculus with 16 samples.

Results

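The 9 genes followed here in whole mouse brain write, erase and read DNA methylation: the writers Dnmt1 and Dnmt3a, the erasers Tet1, Tet2 and Tet3, and the readers Mbd1, Mbd2, Mbd3 and Mbd4. They are the 9 rows, of 49671 genes in each count file, whose Ensembl identifiers carry these symbols on GRCm38, and all 9 passed the filter on low counts. The set was put together around Mbd2, which had been seen in these same data to be low after pubertal lipopolysaccharide, so every Mbd2 difference below is a description and carries no test. Its relatives were chosen by family.

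The 16 samples were whole brains of C57BL/6 mice taken at postnatal day 32, 1 mouse per library and 4 mice in each of 4 groups. Lipopolysaccharide (LPS), a bacterial cell-wall component that sets off innate immune signalling, or saline as its control was injected intraperitoneally into the dam on gestation day 16 and again into the offspring, described as male, at postnatal day 30. The groups were saline-saline (saline both times), LPS-saline (LPS to the dam), saline-LPS (LPS to the offspring) and LPS-LPS (LPS both times), the dam's injection named first. That order is a reading of the labels. Dams and litters are not given in the labels, so p-values here measure only the spread among the mice sequenced.

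Cytosine methylation at CG dinucleotides is laid down by Dnmt3a, copied onto new DNA strands by Dnmt1, and removed in steps that begin when TET enzymes oxidise the methyl group. Proteins with a methyl-CpG-binding domain recruit corepressor complexes to methylated DNA; Mbd2 and Mbd3 are alternative subunits of the nucleosome remodelling and deacetylase (NuRD) complex, and Mbd3 itself binds methylated CG poorly. In the brain Dnmt3a also places methylation outside CG in maturing neurons.

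Of the members 3 passed the test of prenatal LPS described below. The 250 bases upstream of 1 RefSeq start of each (GRCm38.p6, 5′ to 3′ on the gene's strand, CG in capitals) are shown for their CG content. For Dnmt3a and Tet1 this window lies inside the gene bounds given below, which begin further upstream. The windows are chr12:3806730-3806979 (plus strand, the first of 3 Dnmt3a starts), chr10:62887325-62887574 (minus strand, Tet1) and chr10:80399532-80399781 (minus strand, Mbd3).
Dnmt3a: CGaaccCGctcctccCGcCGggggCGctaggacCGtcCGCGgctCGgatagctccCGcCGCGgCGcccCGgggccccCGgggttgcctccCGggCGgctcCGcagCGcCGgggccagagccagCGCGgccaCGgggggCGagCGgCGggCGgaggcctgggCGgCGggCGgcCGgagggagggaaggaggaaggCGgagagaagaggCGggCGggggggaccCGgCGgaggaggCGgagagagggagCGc
Tet1: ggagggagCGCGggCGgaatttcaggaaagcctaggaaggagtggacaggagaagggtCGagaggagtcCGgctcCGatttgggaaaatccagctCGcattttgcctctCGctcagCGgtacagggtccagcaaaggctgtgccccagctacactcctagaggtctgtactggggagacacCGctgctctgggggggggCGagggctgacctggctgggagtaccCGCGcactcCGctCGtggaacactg
Mbd3: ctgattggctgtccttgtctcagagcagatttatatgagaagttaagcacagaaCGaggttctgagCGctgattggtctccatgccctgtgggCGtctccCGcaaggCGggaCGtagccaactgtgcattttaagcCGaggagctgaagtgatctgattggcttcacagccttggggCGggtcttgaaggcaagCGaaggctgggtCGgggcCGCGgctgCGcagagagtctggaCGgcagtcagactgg
The motif searched was CG, which reads the same on both strands. The Dnmt3a window held 38 CG, a number reached by 1.9% of the 32851 RefSeq windows of this length, the Tet1 window 15 (27.3%) and the Mbd3 window 14 (29.4%), against a median of 6. Of the other members with a window, Tet2 had 51 CG (0.1%), Mbd4 22 (14.8%), Tet3 17 (23.5%), and the 3 Dnmt1 starts 2, 7 and 26 (81.2%, 46.3% and 9.6%). The other 2 Dnmt3a starts had 40 and 15 CG (1.3% and 27.3%). No methylation was measured in this series.

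Libraries held 25729919 to 38571036 gene counts, and a single read was worth 0.0389 CPM (the library-scaled count) or less. The cerebellar granule cell marker Gabra6 split the libraries. In 8, found in all 4 groups, it was under 1 CPM, and the other 8 had 2.51 to 70.4 CPM. The groups did not share this split evenly. Among saline-saline mice only replicate 4 reached 1 CPM, while among LPS-LPS mice only replicate 2 stayed under it. In the remaining groups replicates 1 and 2 were under 1 CPM. Gabra6 therefore went in part with prenatal LPS and with both injections against none. The growth hormone transcript Gh, made in the pituitary, was at 502.5 CPM in LPS-LPS 1, at 44.1 CPM in saline-LPS 1 and at 2.58 CPM or less elsewhere, and LPS-LPS 3, although described as male, had 503 CPM of Xist and 0 of Ddx3y. Results are therefore also given without these 3 libraries. The defining markers of neurons, astrocytes, oligodendrocytes and microglia were detected in every group, and the summed CPM of these and 6 other marker lists overlapped between every pair of groups. In whole brain, fewer cells of a type and less RNA per cell cannot be told apart.

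Per kilobase of exonic sequence (CPM per kb, mean ± SD of 16 libraries), Mbd3 was the most abundant member at 73.3 ± 6.34, and it lay above the next gene in 16 of 16 libraries. Mbd2 (11.8 ± 1.21), Dnmt1 (11.1 ± 0.579) and Dnmt3a (9.64 ± 1.06) came next and lay close to one another. Mbd2 exceeded Dnmt1 in 12 of 16 libraries and Dnmt1 exceeded Dnmt3a in 14 of 16, so that the order of these 3 neighbours was not the same in every mouse. Tet3 (5.51 ± 1.03) and Mbd1 (5.15 ± 0.471) also overlapped, with Tet3 higher in 13 libraries. Tet2 (2.14 ± 0.150), Mbd4 (1.38 ± 0.149) and Tet1 (1.09 ± 0.0979) were the least abundant. Among the erasers the order Tet3, Tet2, Tet1 therefore ran from 5.51 to 1.09 CPM per kb. These levels rest on summed exon lengths of GENCODE M21, which count exons of every annotated isoform.

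The comparison of prenatal LPS averaged over the pubertal injection asked what LPS given to the dam left behind in the brain of the 32-day-old offspring. Of the members other than Mbd2, 1 rose (Mbd3) and 2 fell (Dnmt3a and Tet1) by edgeR's quasi-likelihood test at an adjusted p under 0.05. Dnmt1, Tet2, Tet3, Mbd1 and Mbd4 did not pass. This stands beside 7.82% of 18875 tested genes called in this comparison, 4.9% higher and 2.92% lower. The median log2 fold change was -0.098 over the members and -0.005 over all tested genes. With offsets for GC content and gene length 0 of these members were called, and those values stand with the lengths of the members.

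Mbd3 (ENSMUSG00000035478, chr10:80392539-80399550, minus strand) encodes the NuRD subunit. Its level was 136, 129, 142 and 127 CPM in saline-saline mice 1 to 4, and 164, 145, 155 and 153 CPM in LPS-saline mice. It was 137, 141, 138 and 132 CPM in saline-LPS mice and 167, 161, 157 and 148 CPM in LPS-LPS mice. Every one of the 8 mice with prenatal LPS lay above every one of the 8 with prenatal saline, a separation in this direction shown by 0.747% of tested genes. The log2 difference was 0.21 ± 0.04 (SE), or 1.16-fold, with an adjusted p of 0.00375 (edgeR). Leaving out any 1 of the 16 libraries kept the call (adjusted p at most 0.0128), and without the 3 libraries that stand apart the difference was 0.19 (adjusted p = 0.0489).

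**Figure D1:**
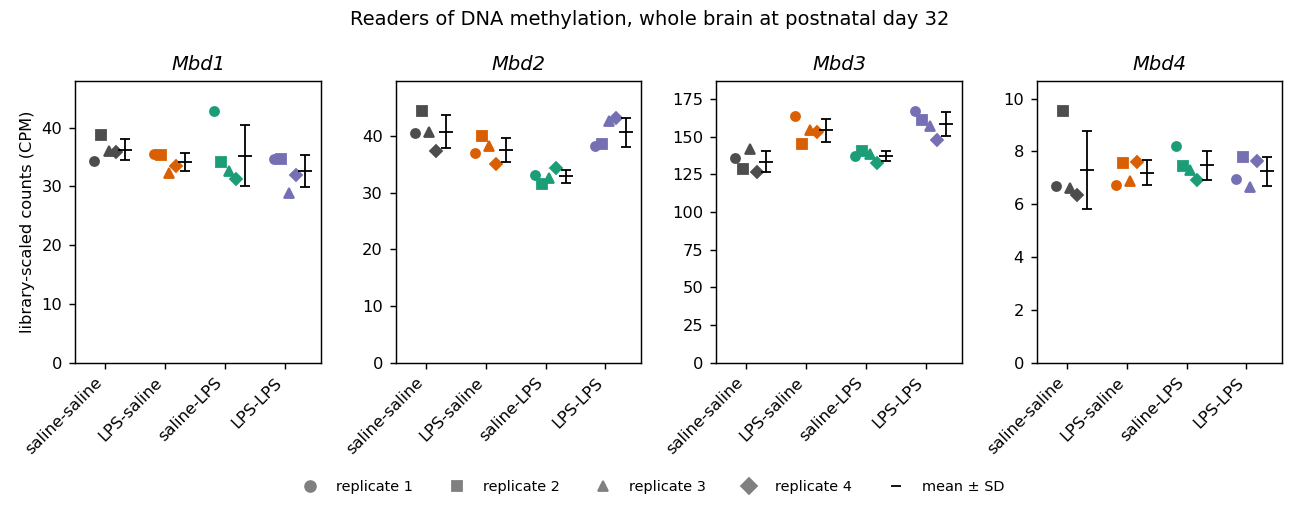
Library-scaled counts (CPM, linear axis from 0) of Mbd1, Mbd2, Mbd3 and Mbd4 in each mouse of the 4 groups, with mean ± SD of 4 mice beside the points. Mbd3 was at 145 CPM or more in every mouse with prenatal LPS and at 142 CPM or less in every other mouse, while Mbd2 was at 34.3 CPM or less only in the saline-LPS mice.

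Within each pubertal arm the Mbd3 difference was of the same size. It was 0.21 ± 0.05 before pubertal saline (edgeR adjusted p = 0.0840) and 0.21 ± 0.06 before pubertal LPS (adjusted p = 0.0928), with no overlap between the 4 and 4 mice in either arm. Such a separation in this direction was seen for 5.17% and 4.96% of tested genes. With the replicate number as a block both arms passed (adjusted p = 0.0266 and 0.0286), and leaving out saline-LPS 1 alone brought the first arm to 0.0417. Mice given both injections had 158 ± 7.92 CPM against 133 ± 6.89 in saline-saline mice, a rise of 0.25 ± 0.05 with an adjusted p of 0.0122 (edgeR); without saline-saline 4 that p was 0.0589. For pubertal LPS the log2 difference of Mbd3 was 0.04 ± 0.05 in each prenatal arm, with 95% intervals of -0.068 to 0.147 after prenatal saline and -0.070 to 0.145 after prenatal LPS, and neither passed (adjusted p = 0.9996 and 0.9997, edgeR).

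Dnmt3a (ENSMUSG00000020661, chr12:3806007-3914443, plus strand), the de novo methyltransferase, was at 175, 197, 159 and 176 CPM in saline-saline mice and at 191, 167, 153 and 148 CPM in saline-LPS mice. It was at 154, 168, 145 and 155 CPM in LPS-saline mice and at 151, 155, 137 and 135 CPM in LPS-LPS mice. The lowest values were those of LPS-LPS 4 and 3, but the 8 and 8 mice overlapped. Dnmt3a fell by 0.19 ± 0.06 on the log2 scale with prenatal LPS (adjusted p = 0.0410, edgeR). The call was kept when saline-saline 3, LPS-saline 2, saline-LPS 3, saline-LPS 4 or LPS-LPS 2 was left out and lost for each of the other 11 libraries, with an adjusted p of up to 0.0975; without the 3 libraries that stand apart the difference was -0.15 (adjusted p = 0.210). Between LPS-LPS and saline-saline mice the groups did not overlap, and Dnmt3a fell by 0.29 ± 0.08 (adjusted p = 0.0302), a call lost without any 1 of saline-saline 1, 2 or 4 or LPS-LPS 1, 3 or 4 (adjusted p up to 0.120). Of all tested genes, 6.56% were called in that comparison, 4.27% higher and 2.29% lower, and 7.81% were separated downwards and 9.63% upwards.

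Dnmt1 (ENSMUSG00000004099, chr9:20907209-20959888, minus strand), the maintenance methyltransferase, had group means of 80.9 ± 4.47, 83.9 ± 3.68, 80.0 ± 5.84 and 82.5 ± 3.49 CPM, in the order in which the groups are named above. The prenatal difference of 0.05 ± 0.04 did not pass (adjusted p = 0.551, edgeR). All 4 groups overlapped.

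Tet1 (ENSMUSG00000047146, chr10:62804570-62908996, minus strand), the least abundant of the TET dioxygenases here, was at 19.5, 18.6, 16.9 and 18.99 CPM in saline-saline mice and at 17.0, 16.3, 16.7 and 18.9 CPM in saline-LPS mice. It was at 15.7, 15.7, 16.8 and 15.7 CPM in LPS-saline mice and at 14.4, 14.6, 16.7 and 16.5 CPM in LPS-LPS mice. All 4 saline-saline mice lay above all 4 LPS-LPS mice, as for 7.81% of tested genes in this direction, and saline-LPS mice overlapped both. Tet1 fell by 0.18 ± 0.05 on the log2 scale with prenatal LPS (adjusted p = 0.0445, edgeR). Only without saline-saline 3, saline-LPS 2, saline-LPS 3 or LPS-LPS 4 was the call kept; for each of the other 12 libraries it was lost, with an adjusted p of up to 0.0950, and without the 3 that stand apart the difference was -0.18 (adjusted p = 0.170). Between LPS-LPS and saline-saline mice Tet1 had a log2 difference of -0.25 ± 0.08 and an adjusted p of 0.05004 (edgeR). With the replicate number as a block that p was 0.0303, but the numbers were not taken to pair the libraries of this comparison. Before pubertal saline the LPS-saline and saline-saline mice also did not overlap for Tet1, as for 3.95% of tested genes in this direction.

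Tet2 (ENSMUSG00000040943, chr3:133463679-133545139, minus strand) was at 34.5 ± 1.198 CPM in the 8 mice with prenatal LPS and 37.7 ± 2.55 CPM in the other 8. The averaged difference of -0.13 ± 0.05 did not pass (adjusted p = 0.0993, edgeR). LPS-LPS mice, at 34.9, 34.7, 33.1 and 35.7 CPM, nevertheless all lay below saline-LPS mice, at 37.4, 38.9, 39.1 and 36.7 CPM, as did 2.98% of tested genes in this direction. Tet3 (ENSMUSG00000034832, chr6:83362373-83459084, minus strand) reached 134.5 CPM in saline-LPS 1 and 123 CPM in saline-saline 2, and its lowest values were 67.1 and 72.6 CPM in LPS-LPS 3 and 4. The averaged Tet3 difference of -0.29 ± 0.10 did not pass (adjusted p = 0.102, edgeR), although DESeq2 called it (adjusted p = 0.0238). Without saline-LPS 1 the Tet3 difference was -0.19 (adjusted p = 0.113, edgeR), and with offsets for GC content and exonic length it was -0.16 (adjusted p = 0.0946).

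**Figure D2:**
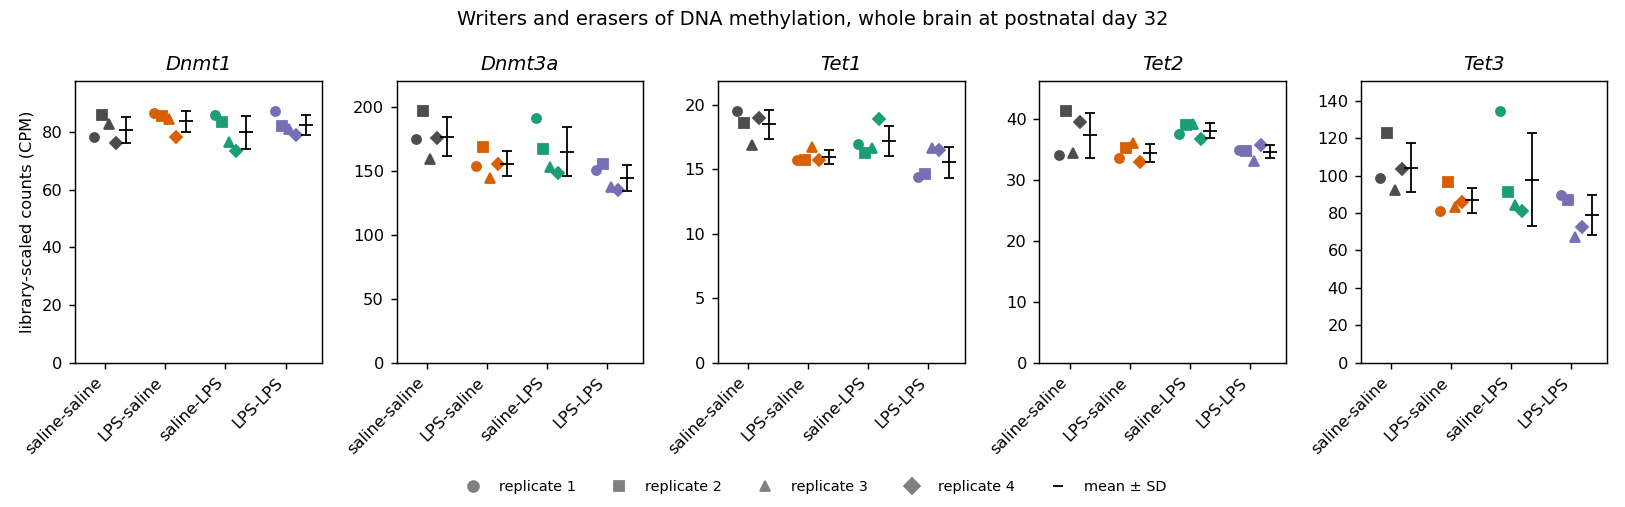
Library-scaled counts (CPM, linear axis from 0) of Dnmt1, Dnmt3a, Tet1, Tet2 and Tet3 in each mouse of the 4 groups, with mean ± SD of 4 mice beside the points. Dnmt3a and Tet1 were lower on average with prenatal LPS, with overlap between the 8 and 8 mice, and Tet3 in saline-LPS 1 stood at 134.5 CPM against 80.9 to 91.3 CPM in the other 3 mice of its group.

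Mbd2 (ENSMUSG00000024513, chr18:70568189-70626131, plus strand), the reader that carries NuRD to methylated CG, was at 40.6, 44.4, 40.8 and 37.4 CPM in saline-saline mice and at 36.9, 40.1, 38.3 and 35.0 CPM in LPS-saline mice. It was at 33.0, 31.5, 32.7 and 34.3 CPM in saline-LPS mice and at 38.3, 38.6, 42.7 and 43.2 CPM in LPS-LPS mice. All 4 saline-LPS mice lay below all 12 others, and the other 3 groups overlapped one another. These values are the ones by which the set was chosen. As a description, the log2 difference of Mbd2 by pubertal LPS was -0.31 ± 0.07 after prenatal saline and 0.11 ± 0.07 after prenatal LPS. By prenatal LPS it was -0.12 ± 0.07 before pubertal saline and 0.31 ± 0.07 before pubertal LPS, and the difference between the pubertal differences was 0.42 ± 0.09. Mice given LPS both times were at 40.7 ± 2.59 CPM and mice given none at 40.8 ± 2.86 CPM. Without the 3 libraries that stand apart the pubertal difference after prenatal saline was -0.31. Among the 8 libraries with Gabra6 at 1 CPM or more, where 1 saline-saline mouse remained, it was -0.145, and among the other 8 it was -0.38.

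Of the 8 members other than Mbd2, 0 were called for pubertal LPS after prenatal saline, after prenatal LPS, averaged over the prenatal injection, or in the interaction (edgeR). In those comparisons 0% of all tested genes were called, and DESeq2 called 0, 9, 0 and 1 genes. At an unadjusted p under 0.05 there were 535, 756, 947 and 402 genes, or 2.83%, 4.01%, 5.02% and 2.13% of those tested. These shares are near or under the one that no difference in any gene would give. For pubertal LPS after prenatal saline, the groups overlapped for each of the other 8 members, while 0.689% of tested genes were separated downwards. Mbd2 is not set beside that share, since its low saline-LPS values chose the set. The log2 differences of the other 8 members in that comparison ran from -0.10 for Tet1 to 0.04 for Mbd3. For prenatal LPS before pubertal LPS 0 of the other 8 members were called, beside 0.609% of all tested genes, of which those called higher made up 0.562% of all tested genes. For prenatal LPS before pubertal saline 0 of these 8 were called, beside 0.18%. Whether Mbd2 passed is not read here, since its saline-LPS values chose it.

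**Figure D3:**
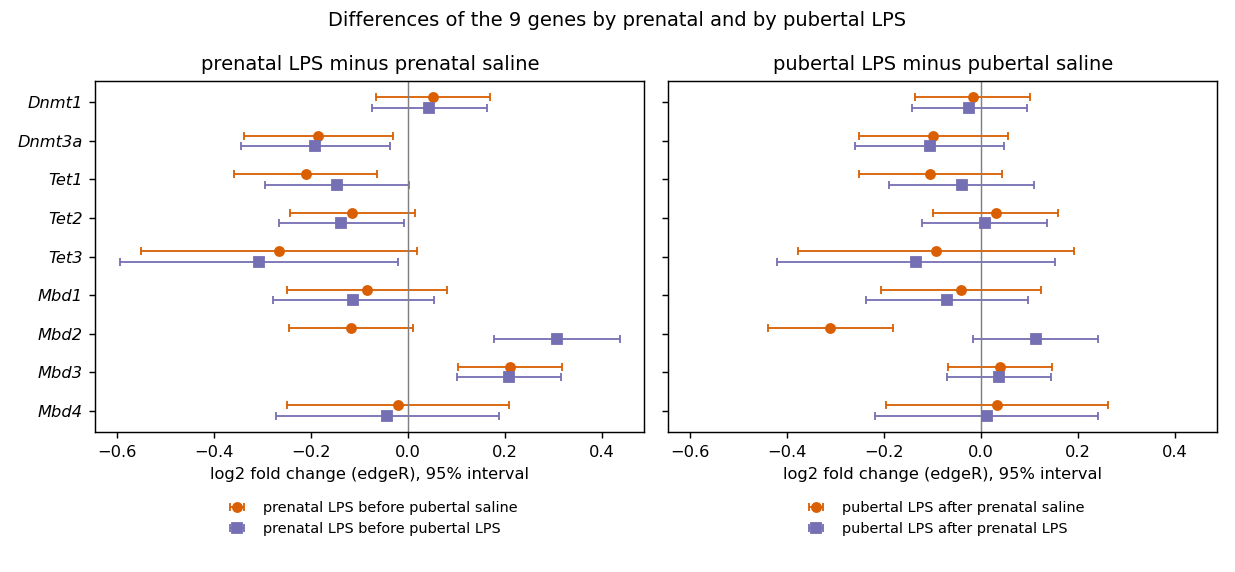
Log2 differences with 95% intervals of the 9 genes for prenatal LPS before pubertal saline and before pubertal LPS and for pubertal LPS after prenatal saline and after prenatal LPS, from 1 fit over 16 libraries. Mbd3 lay at 0.21 in both prenatal comparisons, and Mbd2 at -0.31 in one pubertal comparison and 0.31 in one prenatal comparison, both against the same saline-LPS mice.

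The ratio of the transcripts of the alternative NuRD subunits combined these patterns. Per kilobase, Mbd3 exceeded Mbd2 5.30 ± 0.418 times in saline-saline mice (range 4.69 to 5.62), 6.66 ± 0.605 times in LPS-saline mice, 6.75 ± 0.409 times in saline-LPS mice and 6.32 ± 0.694 times in LPS-LPS mice (SD, n = 4). The lowest ratio in any LPS-LPS mouse was 5.55 and the lowest in LPS-saline and saline-LPS mice were 5.86 and 6.23. The ratio is given as a description without a test because it holds Mbd2, whose low saline-LPS values chose the set and raise the ratio in that group.

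Mbd1 (ENSMUSG00000024561, chr18:74267605-74282732, plus strand), a reader that also binds unmethylated CG through a zinc finger, ran from 28.9 CPM in LPS-LPS 3 to 42.8 CPM in saline-LPS 1. Its averaged prenatal difference of -0.10 ± 0.06 did not pass (adjusted p = 0.348, edgeR). Mbd4 (ENSMUSG00000030322, chr6:115840697-115853371, minus strand), a reader with glycosylase activity that repairs deaminated methylcytosine, had the fewest counts of the members, 3744 over all libraries. Its group means lay between 7.19 and 7.47 CPM, with a prenatal difference of -0.03 ± 0.08 (adjusted p = 0.868, edgeR). A part of the spread was common to several members: saline-saline 2 was the highest mouse of its group for 7 of 9 members and saline-LPS 4 the lowest of its group for 7 of 9.

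The members differ in length, and over all tested genes prenatal differences varied with length. In 10 equal bins of the tested genes ordered by exonic length, the median log2 difference by prenatal LPS was 0.076 where the median length was 1586 bases and -0.09 where it was 11726 bases. The bin of the shortest genes (median 736 bases) lay below the next, at 0.028. Mbd3, the shortest member at 1987 bases, stood 0.151 above the median of its bin. Dnmt3a (16642 bases) and Tet1 (15457 bases) stood in the longest bin at -0.098 and -0.088 from its median, and Tet3 (16695 bases) at -0.196. In an edgeR fit with offsets for GC content and exonic length in each library, the prenatal difference was 0.04 for Mbd3 (adjusted p = 0.585). It was -0.06 for Dnmt3a (adjusted p = 0.273) and -0.07 for Tet1 (adjusted p = 0.522). Of the members other than Mbd2, 0 passed in that fit, while 639 genes did. In that fit the difference between LPS-LPS and saline-saline mice was 0.03 for Mbd3 and -0.11 for Dnmt3a. As a description, Mbd2 (3214 bases) was there at -0.33 by pubertal LPS after prenatal saline and at 0.42 between the pubertal differences. Nothing about the hold of Mbd2 is read from these values, which chose the set. Mbd3 had the highest GC content of the members, 62.9% in its longest transcript, against 51.9% for Dnmt3a and 43.7% for Tet1. The fit took length and GC content together, and their parts were not told apart. The offsets also take up any change that genes alike in length or GC content share, and which of these applies was not tested.

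**Figure D4:**
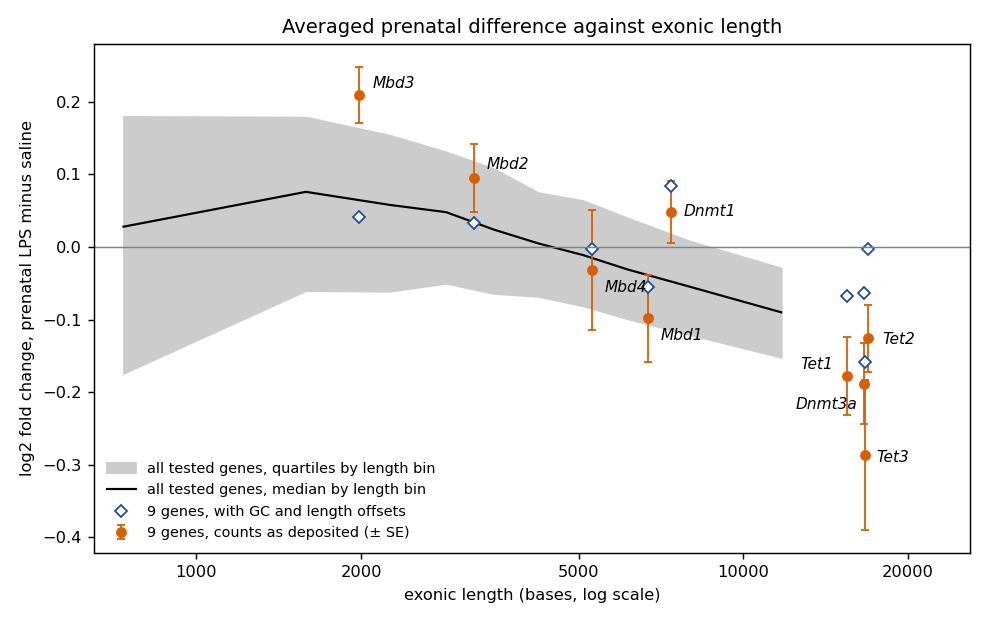
Log2 difference by prenatal LPS averaged over the pubertal injection against exonic length (log axis, bases), with the median and quartiles of each of 10 length bins of the tested genes, the 9 members as labelled points (± SE) and their values with GC and length offsets as open diamonds. The median was 0.028 in the shortest bin (736 bases), 0.076 in the next (1586 bases) and -0.09 in the longest, Mbd3 lay above the median of its bin, and Dnmt3a and the 3 TET genes lay below that of the longest.

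Other genes of the methylation machinery were counted in the comparison of prenatal LPS averaged over the pubertal injection. The counts below stand beside the 7.82% of all tested genes called in it, 4.9% higher and 2.92% lower, and nothing particular to a list is read from them. Among 10 tested genes of other writers and maintenance factors, 1 rose: Trim28, the corepressor that protects imprinted methylation with Zfp57, by 0.14 ± 0.04 (adjusted p = 0.0222, edgeR). Usp7, a deubiquitinase that stabilises Dnmt1, fell by 0.21 ± 0.06 between LPS-LPS and saline-saline mice (adjusted p = 0.0283, and up to 0.112 without saline-saline 1, 2 or 4 or LPS-LPS 1, 3 or 4). With GC and length offsets Usp7 was at -0.13 (adjusted p = 0.173), and without the 3 libraries that stand apart at -0.18 (adjusted p = 0.178).

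Of 14 genes listed for their part in demethylation through repair, 1 rose. Apex1, the endonuclease that cuts at the abasic site left by glycosylases, was at 5.64 ± 0.331 CPM in saline-saline, 6.53 ± 0.357 in LPS-saline, 5.98 ± 0.532 in saline-LPS and 7.92 ± 0.356 in LPS-LPS mice. Its rise was 0.31 ± 0.07 with prenatal LPS (adjusted p = 0.00858, edgeR) and 0.49 ± 0.09 with both injections (adjusted p = 0.00566), and with GC and length offsets the first was 0.27 (adjusted p = 0.0216). Of 8 TET cofactors and partners 1 fell: Ogt, the glycosyltransferase bound by TET proteins, by 0.12 ± 0.04 (adjusted p = 0.0429), and at -0.06 (adjusted p = 0.384) with the offsets. Of 13 NuRD subunits apart from Mbd2 and Mbd3, 1 rose: Cdk2ap1, by 0.23 ± 0.05 (adjusted p = 0.00889), at 40.0 ± 1.88 against 34.1 ± 3.21 CPM. With the offsets Cdk2ap1 was at 0.13 (adjusted p = 0.107). The NuRD subunits had a median log2 difference of 0.004, beside -0.005 over all tested genes.

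Of 10 subunits of the NCoR and Sin3 corepressors 0 were called, and the smallest p belonged to Sap30 at -0.21 ± 0.07 (adjusted p = 0.0853, edgeR). In the methyl donor cycle 2 of 13 genes fell. They were Mat2a, which makes S-adenosylmethionine, by 0.15 ± 0.04 (adjusted p = 0.0160) and Ahcyl2, a relative of the enzyme that clears its product, by 0.12 ± 0.04 (adjusted p = 0.0453). With GC and length offsets Ahcyl2 was at 0.01 (adjusted p = 0.897).

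Genes whose silencing depends on methylation were counted in the same comparison. Of 20 imprinted genes 3 fell and 1 rose. Peg3, a paternally expressed zinc finger gene, fell from 462 ± 24.5 to 394 ± 22.1 CPM, by 0.23 ± 0.04 on the log2 scale (adjusted p = 0.00380, edgeR), and the highest mouse under prenatal LPS (432 CPM) lay just above the lowest under prenatal saline (430.1 CPM). Its neighbour Zim1 fell by 0.31 ± 0.09 (adjusted p = 0.0348) and Peg10 by 0.29 ± 0.08 (adjusted p = 0.0258), while Nnat rose by 0.22 ± 0.05 (adjusted p = 0.00920). Of 11 germline genes known to be silenced by promoter methylation 6 had enough counts to be tested and 0 were called. Taf7l had the smallest p of these, at -0.37 ± 0.20 (adjusted p = 0.273). Of the list genes named for this comparison, Apex1 and Peg3 passed with GC and length offsets, where Peg3 was at -0.12 (adjusted p = 0.0458) in place of -0.23. The offset values were 0.09 for Nnat (adjusted p = 0.211), 0.08 for Trim28 (adjusted p = 0.202), -0.25 for Zim1 (adjusted p = 0.158) and -0.24 for Peg10 (adjusted p = 0.0683). For Mat2a the offset value was -0.12 (adjusted p = 0.0872). With the replicate block added to the offsets, Mat2a (-0.12, adjusted p = 0.0159, edgeR) and Zim1 (-0.25, adjusted p = 0.0328) passed as well. Without the 3 libraries that stand apart Peg3 was the one that passed, at -0.20 (adjusted p = 0.0489). Leaving out 1 library at a time kept the call in 16 of 16 fits for Apex1, Cdk2ap1, Mat2a, Peg3 and Nnat. Trim28 kept it in 14 (adjusted p up to 0.0532 without saline-saline 4 or LPS-saline 2) and Peg10 in 12 (up to 0.0652 without saline-saline 4, LPS-saline 1, LPS-LPS 1 or LPS-LPS 4). Zim1 kept it in 9 and lost it, with an adjusted p of up to 0.0726, without saline-saline 1, 2 or 4, LPS-saline 2, saline-LPS 1, or LPS-LPS 3 or 4. Ogt kept it in 3, those without saline-saline 1, saline-saline 3 or saline-LPS 3 (otherwise up to 0.0938), and Ahcyl2 in 3, those without saline-saline 1, saline-LPS 2 or saline-LPS 4 (otherwise up to 0.0932).

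The genes whose log2 CPM followed Mbd2 most closely over the 16 libraries were sought among 13875 tested protein-coding genes, as a description. They were Glcci1 (Pearson r = 0.832, Spearman rho = 0.774), Hnrnpa0 (0.805 and 0.706), Ppp2cb (0.761 and 0.674) and Msto1 (0.756 and 0.753). Glcci1 averaged 4.20 CPM in saline-LPS mice and 5.21, 5.10 and 5.62 CPM in saline-saline, LPS-saline and LPS-LPS mice. Running most against Mbd2 were Atp6v0e (r = -0.727, rho = -0.715), L3hypdh (-0.724 and -0.759), Lrrc23 (-0.707 and -0.706) and Emc3 (-0.692 and -0.718). None of the other 8 members was close to it, with r from -0.238 for Tet2 to 0.199 for Dnmt1. The points of each correlation share library and depth.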

How the data were processed

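RNA was taken from the whole brain of 1 mouse per library. The data are deposited read counts per gene, made by the authors with STAR 2.5.2b and HTSeq 0.11.2 against GRCm38 (per the submitters' processing notes). Strand setting, annotation release and read filters were not given in the sources used here. Unless strand was used in counting, antisense reads cannot be told apart from those of Dnmt3a (133 exonic bases shared with Dnmt3aos), Tet2 (43 with Gm42567) and Mbd4 (264 with Gm44206); those antisense genes held 116, 39 and 7 counts in all libraries. Of 49671 genes, 49412 matched GENCODE M21, the source of symbols, coordinates and exonic lengths, and 259 did not. The 5 special entries were dropped; reads without a gene made up 8.38 to 11.1%, ambiguous reads 5.11 to 5.48% and reads not aligned uniquely 3.18 to 3.90% of each file. Promoter windows came from RefSeq GRCm38.p6, in which 7 of the 9 members had one.

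Counts were fitted in edgeR 4.0.16 (R 4.3.3) with filterByExpr, TMM scaling and a robust quasi-likelihood model of 4 groups and 16 libraries. In each of 8 comparisons the two-sided p-values of 18875 genes were adjusted together by Benjamini-Hochberg, with calls under 0.05. The common coefficient of variation between mice was 10.4%. CPM use TMM-scaled library sizes; errors are SDs over mice or SEs of the fit. No molecular identifiers are recorded, so the value of 1 read covers counting error alone. The scripts were tested on simulated counts with known changes. Within groups no libraries were duplicates (chi-square per degree of freedom at least 4.97).

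Replicate numbers were checked for pairing over 15230 genes by the correlation of each library's deviation from its group mean with that of its namesake. For prenatal LPS this gave r of 0.115 to 0.578 before pubertal saline and 0.284 to 0.367 before pubertal LPS, and for pubertal LPS after prenatal LPS 0.156 to 0.363. With every r above 0.1 the numbers were taken as possible pairs of these libraries, a rule that set no namesakes against unlike numbers. For 9 of 16 libraries the best correlation was with its own number. Gabra6 went with the number in part, at 0.0375 to 0.104 CPM in replicate 2 and 19.5 to 52.7 CPM in replicate 4 of the groups. What the correlations reflect was not tested. The reported fit has no block, and a blocked value is given beside a result where it changes a call. After prenatal saline (0.012 to 0.355) and for both injections against none (0 to 0.390) the numbers were not taken to pair libraries.

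The alternatives were RLE scaling, DESeq2 1.42.0, no filter, a filter of 1 CPM in 8 libraries, a replicate block, loess offsets (span 0.3) for GC content and exonic length with and without the block, Gabra6 as a covariate, libraries under or at 1 CPM or more of Gabra6, no robust estimation, each library left out in turn and, chosen after seeing the data, leaving out saline-LPS 1, LPS-LPS 1 and LPS-LPS 3 together. Named genes are the 9 members, up to 4 called genes by smallest p per list and comparison (otherwise the smallest p of the averaged prenatal comparison), and the 4 genes most like and the 4 most unlike Mbd2 with a mean of at least 1 CPM. Some genes stand in more than 1 list, and the result of 1 list gene is not reported here. The members, lists and rules were chosen with earlier results of these data known.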

Additional observations from a re-analysis of the deposited data

Results flagged for a closer look

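In 2 of the 36 sets of 4 mice examined (9 members in 4 groups), 1 mouse stood apart from the other 3 by Dixon's criterion; chance alone flags about 1 set in 20. Mbd4 in saline-saline 2 was at 9.52 CPM, against 6.36 to 6.71 CPM in the other 3 mice of the group. Tet1 in LPS-saline 3 was at 16.8 CPM, against 15.7 CPM in each of the other 3. Mbd4 passed no comparison. Without LPS-saline 3 the Tet1 difference for prenatal LPS was -0.19 in place of -0.18. Its call was then lost (adjusted p = 0.0547, edgeR), as it was for 12 of the 16 libraries left out in turn.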

How the results depend on the processing

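Mbd3 was higher with prenatal LPS in every alternative of the 4 comparisons that hold it, but the size did not hold. The smallest log2 differences were 0.0417 averaged over the pubertal injection, 0.0302 for both injections, 0.062 before pubertal saline and 0.0214 before pubertal LPS. In the reported fit they were 0.21, 0.25, 0.21 and 0.21. The number of members called, with Mbd2 left out, did not hold either. For prenatal LPS averaged over the pubertal injection 3 were called; with GC and length offsets 0 were, with or without the replicate block, 0 in libraries under 1 CPM of Gabra6, 1 in those at 1 CPM or more and 1 without the 3 libraries that stand apart. For both injections against none, 2 became 4 with DESeq2 and 0 with GC and length offsets, with those plus the block, under 1 CPM of Gabra6 and without the 3 libraries, where Mbd3 was at 0.21 (adjusted p = 0.126). For prenatal LPS before pubertal LPS the call of Mbd2 is not followed, since its saline-LPS values chose it. Of the other members 0 were called, and 1 (Mbd3) with DESeq2, the replicate block or Gabra6 as a covariate. With offsets, with offsets and block, and without the 3 libraries 0 of these were called. For prenatal LPS before pubertal saline, 0 became 1 (Mbd3) with DESeq2, the block or the Gabra6 covariate. Leaving out 1 library gave 1 to 3 for averaged prenatal LPS, 0 to 4 for both injections and 0 to 1 before pubertal saline. Before pubertal LPS it gave 0 among the members other than Mbd2. For both injections there were 0 without saline-saline 4 and 4 without saline-LPS 1. The 4 other comparisons kept 0 throughout. The block changed no other member call than those of Mbd3 and of Tet1 (both injections, adjusted p = 0.0303), and for 9 of 16 libraries the best correlation was with its own number.

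Among the called values of members other than Mbd2, 0 changed sign. Of 792 uncalled member values, which include values of Mbd2 as a description, 58 did. Ahcyl2 turned to 0.0108 with offsets (adjusted p = 0.897) and to 0.0110 with offsets and block (adjusted p = 0.864). Over all genes, the 1476 calls for averaged prenatal LPS ranged from 13 (under 1 CPM of Gabra6) to 2756 (Gabra6 covariate), the 1238 for both injections from 5 to 2266, the 115 before pubertal LPS from 5 to 856 and the 34 before pubertal saline from 2 to 515. The pubertal comparisons and the interaction, at 0, reached at most 50. The causes were not tested. Each subset by Gabra6 has 8 libraries, so fewer mice stand behind it. Saline-saline 4 was the only mouse of its group at 1 CPM or more, and LPS-LPS 2 the only one of its group under 1 CPM.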
